A study of Mus musculus with 6 samples.

Results

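The genes of cholesterol synthesis, uptake and storage were followed in ovarian RNA of mice with high or low litter size. They were 29 genes taken by symbol from a list, and all 29 were found among the 36727 genes of the table, each as 1 gene ID with counts in every library. By role they were 20 enzymes of synthesis, 5 regulators and 4 genes of sterol transport, storage and efflux. The high litter size group had 3 ovary samples, replicates 1, 3 and 4, and the low litter size group had 3, replicates 1, 2 and 5. All were from adult female F4 inbred Swiss albino mice aged 135 to 140 days, taken as estrous-phased ovarian tissue, with no treatment or engineered allele in the labels. Litter size counts the pups of a birth, and no other label separates the groups. No label gives each sample its own animal, so the p-values reflect how far these 6 samples differ, and part of that may be technical.

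Cholesterol is built from acetyl-CoA through mevalonate, farnesyl diphosphate, squalene and lanosterol. Its synthesis is switched by the SREBP transcription factors, which are carried by Scap out of the endoplasmic reticulum when sterols are low and held there by the Insig proteins when sterols are high. When sterols are plentiful, oxysterols activate the nuclear receptor LXR, whose known target genes include the efflux pumps Abca1 and Abcg1. In the ovary, luteal and other steroid-making cells turn cholesterol into progesterone and other steroids, and they keep a reserve of it as cholesteryl esters.

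The 6 libraries held 17620903 to 24758222 estimated counts, and levels are given as CPM, the depth-scaled count of a library, after TMM normalization. The libraries differed in the markers of the labelled tissue. The summed level of 8 granulosa cell markers was 31.5, 17.8 and 430 CPM in high replicates 1, 3 and 4, against 284, 25.8 and 233 CPM in low replicates 1, 2 and 5. High replicates 1 and 3 and low replicate 2 thus held little signal from most of these markers. Foxl2, 1 of the 8, differed less, with 21.4, 10.3 and 41.3 CPM in the high libraries, against 31.1, 21.6 and 56.3 CPM in the low libraries. Fshr, the receptor for follicle-stimulating hormone, was at 0 counts in high replicates 1 and 3, and Amh, anti-Mullerian hormone, was at 0 counts in low replicate 2. The sum of 8 oocyte markers was 1.02, 2.997 and 53.5 CPM in the high libraries, against 11.4, 2.03 and 38.5 CPM in the low libraries, with 4 of the 8 at 0 in high replicate 1 and in low replicate 2 (Zp2, Zp3, Figla and Nobox) and 2 of the 8 at 0 in high replicate 3 (Figla and Nobox). Results are therefore also given for the 3 libraries with the highest granulosa sums (high replicate 4 and low replicates 1 and 5) and for the other 3, a split made after the data were seen. In each of these 1 litter size group is a single library.

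No cholesterol gene passed the test of high against low litter size. Of 29 tested, 0 had an adjusted p under 0.05 by the quasi-likelihood test of edgeR with Benjamini-Hochberg adjustment, where 0.00608% of all 16455 tested genes did (1 gene). Of the 29, 23 had a positive and 6 a negative log2 fold change, with a median of 0.56, against a median of 0.068 over all tested genes, of which 55.3% were positive. That balance rested on 1 library: without high replicate 4 the median was -0.051 and 14 of 29 were positive. At an unadjusted p under 0.05 there were 8 that were higher in high litter size, where 6.56% of all tested genes were in that class, and 1 that was lower, where 7.82% of all genes were. Together these were 9 genes, where 14.4% of all tested genes had such a p. With a high library left out the count was 11 without high replicate 1 (15.2% of all genes), 7 without high replicate 3 (12.3%) and 11 without high replicate 4 (16.9%). With a low library left out it was 4 without low replicate 1 (7.27% of all genes), 2 without low replicate 2 (9.49%) and 5 without low replicate 5 (12.1%). DESeq2 called 4 of the 29, all higher, where it called 2.1% of all genes higher and 4.08% lower, and limma voom called 0. The edgeR likelihood ratio test called 3, all higher, where it called 0.954% of all genes higher and 2.88% lower. The 4 were Acat2, Hmgcs1, Abca1 and Abcg1, and the 3 were Hmgcs1, Abca1 and Abcg1.

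In 6 of the 29 genes all 3 high libraries lay above all 3 low libraries (Acat2, Pmvk, Lss, Sc5d, Abca1 and Abcg1), a pattern held by 8.75% of all tested genes. In 1 gene, Ebp, all high libraries lay below all low libraries, as in 10.8% of all genes. Together these were 24.1% of the 29, near the 19.5% of all tested genes whose groups did not overlap.

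**Figure D1:**
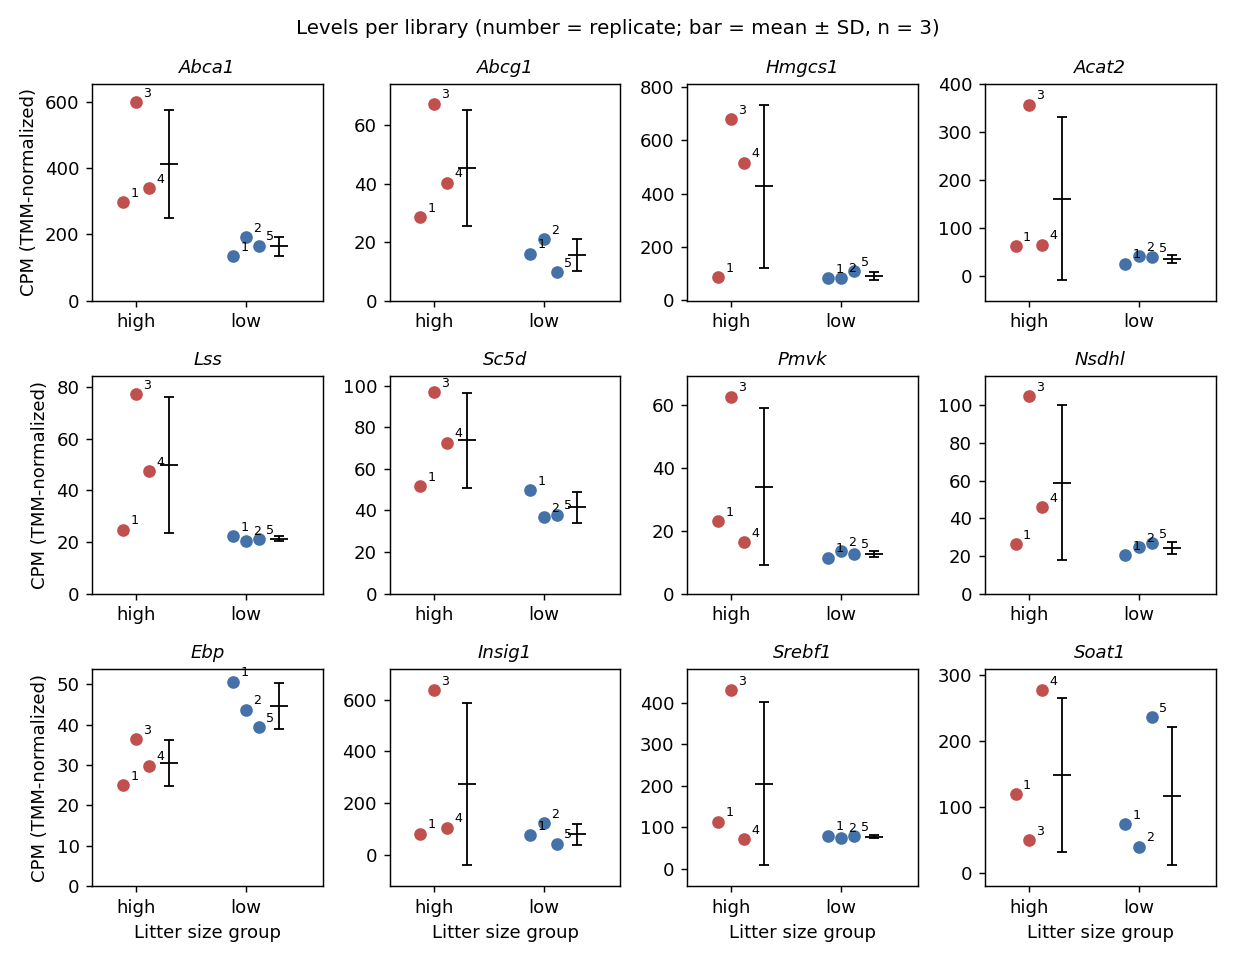
Level of 12 cholesterol genes in each library, in TMM-normalized CPM on a linear axis, with high litter size in red on the left and low litter size in blue on the right. Numbers are replicate numbers and bars are mean ± SD (n = 3). Abca1 and Abcg1 do not overlap between groups, Ebp is lower in all 3 high libraries, and Insig1 and Srebf1 stand out in high replicate 3 alone, at 637 and 430 CPM.

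The efflux pumps held the smallest p-values of the 29. Abca1, which loads cholesterol onto lipid-poor apolipoprotein (ENSMUSG00000015243, chromosome 4 from 53030787 to 53159895, GRCm38), had 297, 599 and 339 CPM in high replicates 1, 3 and 4, against 135, 191.5 and 166 CPM in low replicates 1, 2 and 5. Every high library exceeded every low one, by a margin wider than the spread of the low group. The means were 412 ± 163 CPM (SD, n = 3) with high litter size, against 164 ± 28.2 CPM (SD, n = 3) with low litter size (log2 fold change 1.32, SE 0.34, edgeR adjusted p = 0.206, DESeq2 adjusted p = 0.00764). Leaving out any 1 library kept the log2 fold change between 0.95 and 1.49.

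Abcg1, which passes cholesterol on to high-density lipoprotein (ENSMUSG00000024030, chromosome 17 from 31057675 to 31117988), had 28.6, 67.4 and 40.4 CPM in the high libraries, against 16.1, 21.1 and 9.90 CPM in the low libraries. It too was separate between the groups, with high replicate 3 highest. Its means were 45.5 ± 19.9 CPM (SD, n = 3) with high litter size, against 15.7 ± 5.62 CPM (SD, n = 3) with low litter size (log2 fold change 1.53, SE 0.41, edgeR adjusted p = 0.220, DESeq2 adjusted p = 0.0190), and with 1 library left out the log2 fold change ran from 1.14 to 1.81. Among the 3 libraries rich in granulosa markers the log2 fold changes were 1.14 for Abca1 and 1.60 for Abcg1, and among the other 3 they were 1.20 and 1.15. Macrophages, a cell type with much Abca1 and Abcg1, had a summed level over 10 markers of 1328, 1887 and 1052 CPM in the high libraries, against 906, 1140 and 920 CPM in the low libraries. None of the 10 was at 0 in any library, all 10 were highest in high replicate 3, and their part in the values of the pumps was not tested. Most markers of 3 other cell types also had fold changes of 1 sign, and so had the adipocyte markers described further below. The sum of 7 simple epithelium markers was 463, 438 and 764 CPM in the high libraries, against 3601, 2107 and 1486 CPM in the low libraries. Of the 7, 5 were lower in every high library than in every low one, as were 10.8% of all tested genes. The sum of 7 endothelium markers was 1008, 962 and 516 CPM in the high libraries, against 355, 508 and 555 CPM in the low libraries, with 7 of 7 positive in log2 fold change and 3 separate between the groups. Over all tested genes 55.3% were positive, and in 8.75% all high libraries lay above all low ones. The sum of 7 smooth muscle markers was 10290, 3193 and 5283 CPM in the high libraries, against 7951, 13080 and 15550 CPM in the low libraries, with 7 of 7 negative. Just 1 of the 7 (14.3%) was separate, lower in every high library, near the 10.8% of all tested genes with that order. None of the epithelium, endothelium and smooth muscle markers was at 0 in any library, 0 of them passed by edgeR, and their part in the values of the cholesterol genes was not tested. In bulk tissue, fewer cells of a type and less RNA per cell cannot be told apart.

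The other 2 genes of this group, which handle sterol inside the cell, did not follow the pumps. Soat1, which esterifies cholesterol for storage in droplets (ENSMUSG00000026600, chromosome 1 from 156424525 to 156474331), had 119, 48.8 and 277 CPM in the high libraries, against 73.1, 39.5 and 236 CPM in the low libraries. High replicate 4 and low replicate 5 were the 2 highest and high replicate 3 and low replicate 2 the 2 lowest, so the groups overlapped over nearly their whole range (log2 fold change 0.35, SE 0.82, edgeR adjusted p = 0.874). Without high replicate 4 the value was -0.50, and without low replicate 5 it was 1.40. Stard4, a soluble carrier of cholesterol between membranes (ENSMUSG00000024378, chromosome 18 from 33199355 to 33213862), had 29.8, 22.3 and 49.9 CPM in the high libraries, against 39.6, 34.1 and 46.6 CPM in the low libraries. Its order by library resembled that of Soat1 at the top, and the groups overlapped (log2 fold change -0.24, SE 0.32, edgeR adjusted p = 0.778).

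At the head of synthesis, Hmgcs1, the cytosolic HMG-CoA synthase (ENSMUSG00000093930, chromosome 13 from 119690379 to 119708260), had the largest log2 fold change of the 29. It had 86.5, 680 and 516 CPM in high replicates 1, 3 and 4, against 81.4, 83.3 and 108 CPM in low replicates 1, 2 and 5. High replicates 3 and 4 stood far above the other 4 libraries, while high replicate 1 lay within the low group. The means were 427 ± 306 CPM (SD, n = 3) with high litter size, against 90.9 ± 14.8 CPM (SD, n = 3) with low litter size (log2 fold change 2.23, SE 0.69, edgeR adjusted p = 0.264, DESeq2 adjusted p = 0.0184). It was 2.41 among the granulosa-rich libraries and 2.16 among the other 3, and ran from 1.72 to 2.70 with 1 library left out. Per kilobase of its longest coding transcript, Hmgcs1 was also the gene of highest mean level over the 6 libraries, 74.8 CPM per kilobase, followed by Insig1 with 65.8 and Fdps with 61.0, and Hsd17b7 was lowest with 3.22. The mean of Hmgcs1 rested on high replicates 3 and 4, at 196 and 149 CPM per kilobase. In single libraries the highest gene was Insig1 (high replicates 1 and 3, low replicate 2) or Fdps (high replicate 4, low replicates 1 and 5). These levels per length rest on 1 annotated transcript per gene.

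Promoters are shown for the gene with the most motif matches in each role and for the gene of smallest p among those with a promoter in the table, which gave Hmgcs1, Srebf2 and Abca1, the last by both rules. They are RefSeq windows of GRCm38.p6 around each gene's start, most of each lying before it, on the gene's strand: Hmgcs1 at chr13:119690101-119690400 (plus strand), Srebf2 at chr15:82147019-82147318 (plus strand) and Abca1 at chr4:53159846-53160145 (minus strand). Capitals mark matches, on either strand, to the sterol regulatory element core TCACNCCAC, the NF-Y box CCAAT, the E-box CACGTG and the Sp1 box GGGCGG, where ATTGG and CCGCCC are the reverse complements of the NF-Y and Sp1 boxes. No 2 matches share a base in these windows.
Hmgcs1: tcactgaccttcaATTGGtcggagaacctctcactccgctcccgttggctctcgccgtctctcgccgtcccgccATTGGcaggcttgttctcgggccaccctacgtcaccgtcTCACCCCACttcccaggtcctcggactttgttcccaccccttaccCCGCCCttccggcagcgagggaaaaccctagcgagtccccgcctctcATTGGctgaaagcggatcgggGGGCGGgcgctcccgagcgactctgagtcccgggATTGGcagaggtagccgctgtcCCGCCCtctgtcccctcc
Srebf2: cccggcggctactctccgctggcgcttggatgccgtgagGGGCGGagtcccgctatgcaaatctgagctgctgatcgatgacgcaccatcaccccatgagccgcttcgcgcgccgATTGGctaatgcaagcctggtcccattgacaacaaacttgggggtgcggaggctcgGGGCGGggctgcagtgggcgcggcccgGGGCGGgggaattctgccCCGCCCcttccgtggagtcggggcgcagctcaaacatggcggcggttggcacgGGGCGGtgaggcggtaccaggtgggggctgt
Abca1: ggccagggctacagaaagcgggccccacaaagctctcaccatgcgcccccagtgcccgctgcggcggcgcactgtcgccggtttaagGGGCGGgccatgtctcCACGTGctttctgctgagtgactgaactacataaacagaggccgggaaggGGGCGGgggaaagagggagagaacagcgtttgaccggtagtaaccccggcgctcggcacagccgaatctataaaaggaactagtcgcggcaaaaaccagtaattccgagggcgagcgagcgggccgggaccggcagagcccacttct
Hmgcs1 held 1 match to the sterol element core, at bases 114 to 122 of the window, with 4 NF-Y and 3 Sp1 boxes around it, while Srebf2 held 1 NF-Y and 5 Sp1 boxes and Abca1 held 1 E-box and 2 Sp1 boxes.

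A promoter was found for 24 of the 29 genes, in 32 windows, and the others (Fdps, Fdft1, Sqle, Stard4 and Abcg1) had none in the table. The sterol element core was in 1 of the 32 windows (3.12%), against 1.24% of all 32851 windows of the same length, and Hmgcs1 was the gene that held it. NF-Y boxes were in 68.8% of the cholesterol gene windows, against 37.4% of all windows. Sp1 boxes were in 81.2%, against 35.7%, and E-boxes in 21.9%, against 7.15%. These are matches of letters only, several windows belong to 1 gene, and they were not set against the expression values.

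Acat2, the cytosolic thiolase of the first step (ENSMUSG00000023832, chromosome 17 from 12942890 to 12960747), had 62.6, 357 and 65.2 CPM in the high libraries, against 26.2, 41.4 and 39.4 CPM in the low libraries. The groups were separate, and high replicate 3 was 8.63 times the median of the other 5 libraries. Its log2 fold change was 2.18 (SE 0.73, edgeR adjusted p = 0.291, DESeq2 adjusted p = 0.0356), and 0.84 without high replicate 3. In the mevalonate steps that follow, Pmvk, phosphomevalonate kinase, had 23.0, 62.7 and 16.3 CPM in the high libraries, against 11.4, 13.4 and 12.7 CPM in the low libraries. The groups did not overlap, though high replicate 4 was near the low libraries (log2 fold change 1.44, SE 0.51, edgeR adjusted p = 0.304; 0.65 without high replicate 3). Mvk, mevalonate kinase, ranged over 10.1 to 25.0 CPM in high libraries, against 10.1 to 14.2 CPM in low ones (log2 fold change 0.40), and Mvd, the decarboxylase that makes isopentenyl diphosphate, ranged over 15.5 to 23.7 CPM in high libraries, against 20.97 to 35.5 CPM in low ones (-0.38).

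From isopentenyl diphosphate to squalene, Idi1, Fdps and Fdft1 were highest in high replicate 4. Fdps, farnesyl diphosphate synthase, had 23.5, 72.4 and 251 CPM in the high libraries, against 45.8, 34.9 and 78.1 CPM in the low libraries. The high group thus held both the highest and the lowest library (log2 fold change 1.13, SE 0.80, edgeR adjusted p = 0.565), and without high replicate 4 the value was -0.19. Of the exon length of Fdps, 26.7% is shared with Gm43738 on the same strand, a gene given 19 counts over all 6 libraries. Idi1, the isopentenyl diphosphate isomerase, had 22.5, 50.8 and 174 CPM in the high libraries, against 69.1, 39.0 and 58.4 CPM in the low libraries (log2 fold change 0.57, SE 0.70; -0.64 without high replicate 4). Squalene synthase, Fdft1, had a log2 fold change of 0.013 (SE 0.34; -0.38 without high replicate 4), and 18.3% of its exon length lies under exons of Ctsb on the opposite strand, so reads of the 2 cannot be told apart there without strand. Ggps1, the geranylgeranyl diphosphate synthase of a side branch, had the narrowest range of the 29, with 41.5 to 43.5 CPM in high libraries, against 39.4 to 47.7 CPM in low ones (log2 fold change -0.032, SE 0.17).

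The oxidosqualene steps parted from each other. Sqle, squalene epoxidase, had 16.4, 24.2 and 89.3 CPM in the high libraries, against 31.8, 23.6 and 39.95 CPM in the low libraries, and its log2 fold change of 0.45 (SE 0.63) was -0.68 without high replicate 4. Lss, lanosterol synthase (ENSMUSG00000033105, chromosome 10 from 76531588 to 76557138), had 24.8, 77.4 and 47.4 CPM in the high libraries, against 22.3, 20.4 and 21.2 CPM in the low libraries. All 3 high libraries were above the low ones, which lay within 2 CPM of each other, and high replicate 1 was the closest to them. Its means were 49.9 ± 26.4 CPM (SD, n = 3) with high litter size, against 21.3 ± 0.944 CPM (SD, n = 3) with low litter size (log2 fold change 1.23, SE 0.40, edgeR adjusted p = 0.279). That value was 0.76 without high replicate 3, and 1.09 and 1.29 in the granulosa-rich and the other 3 libraries.

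The steps that trim lanosterol to cholesterol held both patterns. Dhcr7, the reductase of the last step, had 16.9, 50.3 and 290.5 CPM in high replicates 1, 3 and 4, against 11.7, 14.1 and 55.9 CPM in low replicates 1, 2 and 5. High replicate 4 was 17.2 times the median of the other 5 libraries, the widest such ratio of the 29, and the 2 libraries next below it were low replicate 5 and high replicate 3 (log2 fold change 2.13, SE 1.12, edgeR adjusted p = 0.438; 0.25 without high replicate 4). Msmo1, a methylsterol oxidase, had 10.7, 30.5 and 193 CPM in the high libraries, against 44.4, 22.7 and 47.6 CPM in the low libraries (log2 fold change 1.03, SE 0.97; -0.93 without high replicate 4). Hsd17b7, a sterol ketoreductase, and Cyp51, the lanosterol demethylase, were likewise highest in high replicate 4, at 34.3 and 115 CPM, and their log2 fold changes of 0.44 and 0.46 were -0.61 and -0.36 without it.

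Sc5d, a sterol desaturase, and Nsdhl, a sterol dehydrogenase, were instead highest in high replicate 3. Sc5d had 51.6, 96.9 and 72.5 CPM in the high libraries, against 49.8, 36.6 and 37.8 CPM in the low libraries, with the groups apart by the small gap between high replicate 1 and low replicate 1 (log2 fold change 0.83, SE 0.28, edgeR adjusted p = 0.289; 0.58 to 1.01 with 1 library left out). Nsdhl had 26.2, 105 and 45.7 CPM in the high libraries, against 20.5, 24.7 and 26.7 CPM in the low libraries, and overlapped only through high replicate 1 and low replicate 5 (log2 fold change 1.30, SE 0.49, edgeR adjusted p = 0.323; 0.58 without high replicate 3). Ebp, the sterol isomerase (ENSMUSG00000031168, chromosome X from 8185329 to 8193512), had the opposite order, with 25.0, 36.4 and 29.9 CPM in the high libraries, against 50.7, 43.7 and 39.4 CPM in the low libraries. All high libraries lay below all low ones (log2 fold change -0.55, SE 0.21, edgeR adjusted p = 0.328), and with 1 library left out the value stayed between -0.70 and -0.44. Tm7sf2 and Lbr, sterol reductases that share a step, gave log2 fold changes of 0.36 (SE 0.28) for Tm7sf2 and -0.14 (SE 0.23) for Lbr, which is also the lamin B receptor of the nuclear envelope. Of Tm7sf2, 12.1% of the exon length is shared with Vps51 on the same strand.

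**Figure D2:**
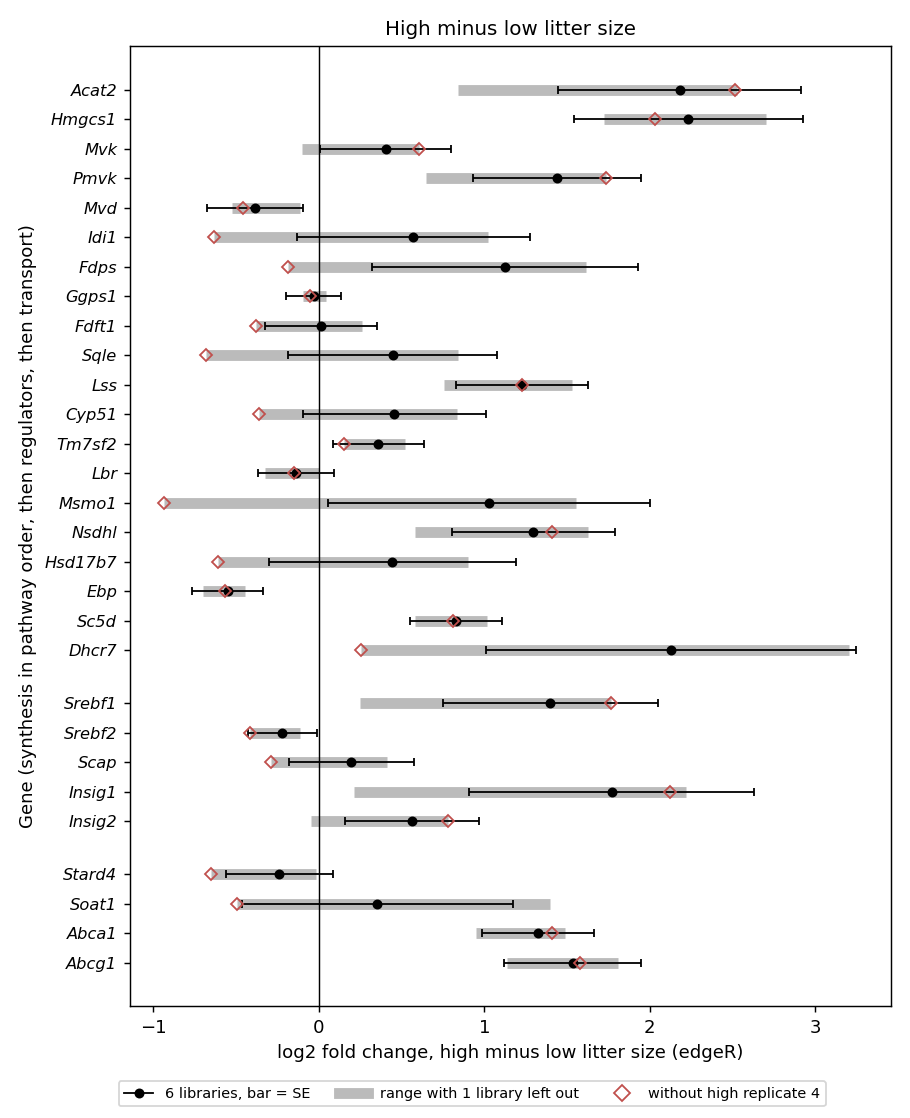
Log2 fold change of each of the 29 genes, high minus low litter size, with synthesis enzymes in pathway order at the top, then regulators, then transport, storage and efflux. Black points with bars are edgeR values and SE over 6 libraries, grey bars the range with 1 library left out, and red diamonds the value without high replicate 4. Idi1, Fdps, Fdft1, Sqle, Cyp51, Msmo1, Hsd17b7, Scap and Soat1 go from above to below 0 when high replicate 4 is left out. Abca1, Abcg1, Hmgcs1, Acat2, Lss, Pmvk, Nsdhl, Sc5d, Dhcr7, Srebf1, Insig1 and Tm7sf2 stay above 0 whichever library is left out.

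Among the regulators, 0 of 5 had an unadjusted p under 0.05, and 3 of them had their highest level in high replicate 3. Insig1, an anchor of Scap whose gene is itself an SREBP target (ENSMUSG00000045294, chromosome 5 from 28071363 to 28078662), had 81.8, 637 and 104 CPM in the high libraries, against 75.3, 123 and 42.8 CPM in the low libraries. High replicate 3 stood alone, and the other 5 libraries overlapped between groups (log2 fold change 1.77, SE 0.86, edgeR adjusted p = 0.407; 0.21 without high replicate 3). Srebf1, whose product also drives fatty acid synthesis (ENSMUSG00000020538, chromosome 11 from 60199089 to 60222581), had 114, 430 and 71.3 CPM in the high libraries, against 80.1, 74.9 and 78.4 CPM in the low libraries. It too was set apart by high replicate 3, with high replicate 4 lowest of all (log2 fold change 1.40, SE 0.65, edgeR adjusted p = 0.387; 0.25 without high replicate 3). Insig2, the other anchor, had 47.9, 114.5 and 41.0 CPM in the high libraries, against 44.5, 42.4 and 51.0 CPM in the low libraries (log2 fold change 0.56, SE 0.40; -0.049 without high replicate 3).

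The SREBP of the cholesterol genes and its escort were flatter. Srebf2, which encodes the SREBP that acts mainly on cholesterol synthesis, had 59.5, 68.3 and 87.0 CPM in the high libraries, against 87.9, 74.4 and 88.0 CPM in the low libraries, a range of 1.48-fold over all 6 (log2 fold change -0.22, SE 0.21, edgeR adjusted p = 0.671). Scap, the escort, had 50.5, 55.6 and 112 CPM in the high libraries, against 64.1, 45.2 and 80.9 CPM in the low libraries, with high replicate 4 and low replicate 5 highest (log2 fold change 0.20, SE 0.38; -0.29 without high replicate 4). Per kilobase, the level of Insig1 was above that of Insig2 in 5 of 6 libraries, and Srebf1 above Srebf2 in 5 of 6. The exceptions were low replicate 5 for the Insig genes and high replicate 4 for the SREBP genes.

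Set out by library, the 29 genes formed mostly 2 blocks. Of the 29, 12 were highest in high replicate 3 (Acat2, Hmgcs1, Mvk, Pmvk, Lss, Nsdhl, Sc5d, Srebf1, Insig1, Insig2, Abca1 and Abcg1) and 12 in high replicate 4 (Idi1, Fdps, Fdft1, Sqle, Cyp51, Tm7sf2, Msmo1, Hsd17b7, Dhcr7, Scap, Stard4 and Soat1). That is 41.4% of the 29 in each, where 27.8% of all tested genes were highest in high replicate 3 and 17.4% in high replicate 4. Of the other 5, Mvd, Ggps1 and Ebp were highest in low replicate 1, and Lbr and Srebf2 in low replicate 5. High replicate 1 was highest for 0 of the 29 and lowest for 10, among them 9 synthesis enzymes, so the high group held both extremes of synthesis. The highest library was over 2 times the median of the other 5 in 20 of the 29 genes (69.0%), against 36.3% of all tested genes. The spread over the 6 libraries, as the median SD of log2 CPM, was 0.79 for the 29 and 0.47 for all tested genes.

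**Figure D3:**
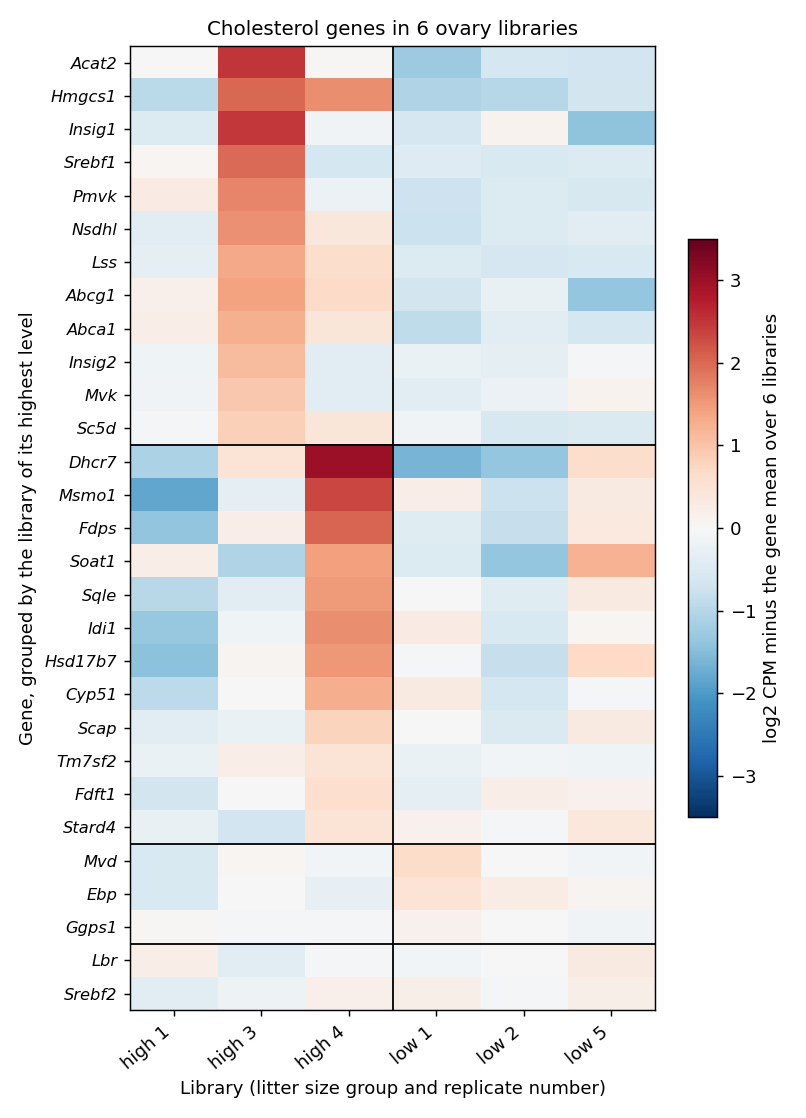
Levels of the 29 cholesterol genes in the 6 libraries, as log2 CPM minus each gene's mean over the 6, red above and blue below it, with high litter size libraries left of low ones. Rows are grouped by the library of the highest level, and lines part the groups of 12, 12, 3 and 2 genes. The first block is red in high replicate 3 and the second in high replicate 4, where Dhcr7 has the deepest colour.

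Most markers of steroid-making cells were highest in the library of the second block. Star, Cyp11a1 and 9 other steroidogenic and luteal markers summed to 552, 252 and 12280 CPM in high replicates 1, 3 and 4, against 1068, 269 and 4336 CPM in low replicates 1, 2 and 5. Of these 11 markers 10 were highest in high replicate 4. The exception was Cyp17a1, with 1.51 CPM in high replicate 4, against 18.8 and 21.1 CPM in low replicates 1 and 5. It was at 0 counts in high replicate 1 and low replicate 2. The median centred log2 CPM of the 12 genes of that block was -0.94, -0.079 and 1.46 in the high libraries, against -0.034, -0.57 and 0.32 in the low libraries. High replicate 4, low replicate 5 and low replicate 1 were thus the top 3 by both measures. By single genes, high replicate 4 and low replicates 1 and 5 were the 3 highest libraries for 5 of the 12 (Idi1, Sqle, Msmo1, Scap and Stard4), and for 20.7% of all 29 against 4.91% of all tested genes. The blocks were formed from these levels, so this is a description, and the part of steroid-making cells in it was not tested.

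Fat cell and macrophage markers were highest in the library of the first block. The 11 adipocyte markers summed to 3769, 27070 and 2797 CPM in the high libraries, against 382, 4089 and 1419 CPM in the low libraries. Of these, 10 were tested, and 10 had a positive log2 fold change, with a median of 2.44, against 0.068 over all tested genes. In 3 of the 10 all high libraries lay above all low ones, as in 8.75% of all tested genes, and 0 passed by edgeR. All 11 were highest in high replicate 3, including Ucp1, the uncoupling protein of brown fat, which had 74.9 CPM there and was at 0 counts in low replicates 1 and 2. The 12 genes of the block had medians of -0.091, 1.50 and 0.23 in the high libraries, against -0.62, -0.49 and -0.56 in the low libraries. Beyond high replicate 3 the orders parted: low replicate 2 had the second highest adipocyte sum, but high replicate 4 had the second highest block median. Single genes of the block went both ways between these libraries. Hmgcs1 had 516 CPM in high replicate 4, where the adipocyte sum was 2797 CPM, and 83.3 CPM in low replicate 2, where it was 4089 CPM. Insig1 had 104 CPM in high replicate 4 and 123 CPM in low replicate 2, and Mvk, Srebf1 and Insig2 were also lower in high replicate 4. The part of adipocytes and macrophages in the block was not tested.

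**Figure D4:**
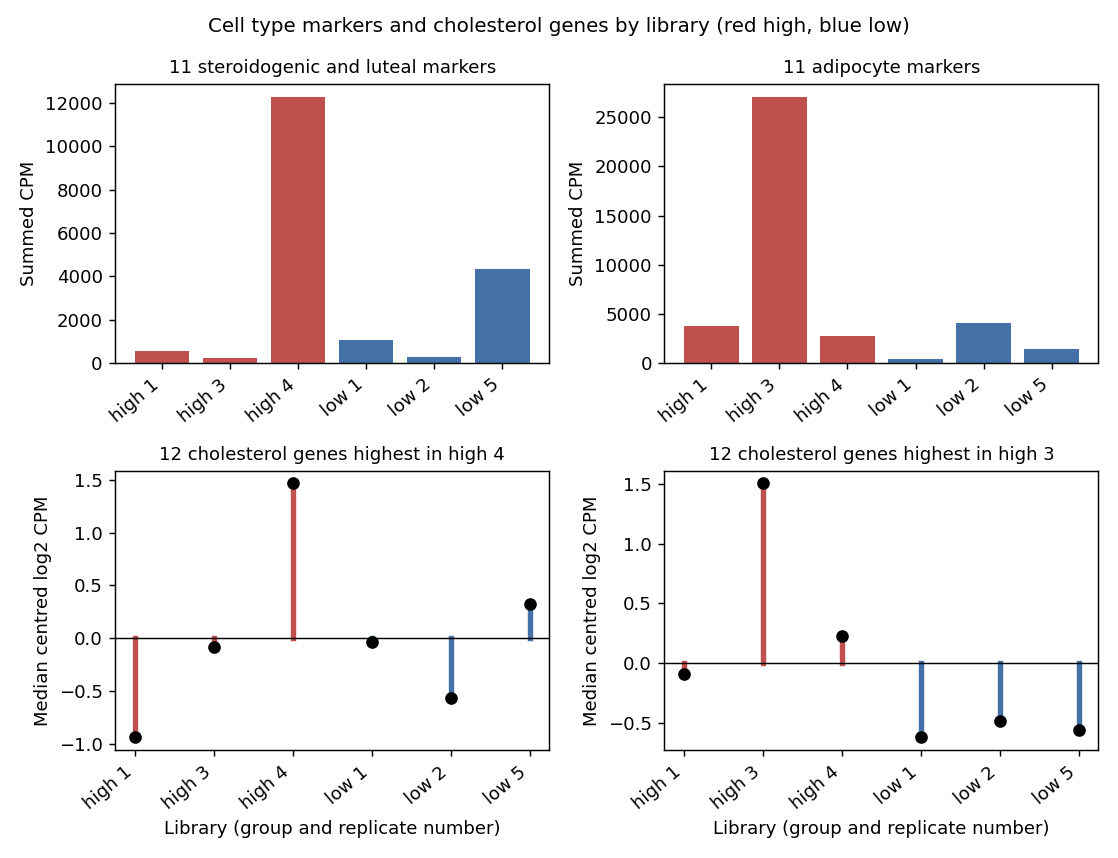
Top, summed CPM of 11 steroidogenic and luteal markers (left) and 11 adipocyte markers (right) in each library, on linear axes from 0. Bottom, median centred log2 CPM of the 12 cholesterol genes highest in high replicate 4 (left) and of the 12 highest in high replicate 3 (right), with high litter size in red and low in blue. Both rows on the left peak in high replicate 4 (12280 CPM and 1.46), and both on the right in high replicate 3 (27070 CPM and 1.50).

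The split by granulosa signal gave different leading genes. Among high replicate 4 and low replicates 1 and 5, 21 of the 29 genes were positive with a median log2 fold change of 0.79, and Dhcr7, at 3.07, Hmgcs1, at 2.41, and Msmo1, at 2.03, were the largest. Among high replicates 1 and 3 and low replicate 2, 19 were positive with a median of 0.43, and the largest were Acat2, at 2.31, Hmgcs1, at 2.16, and Srebf1, at 1.83. Neither split gave a gene that passed by edgeR, with 11 of the 29 at an unadjusted p under 0.05 in the first, where 9.81% of all genes were, and 0 in the second, where 5.66% were. In each split 1 group is a single library, assumed to vary like the other group. The counts by p therefore show how far that library lies from the others, and no conclusion on litter size is drawn from them. With all libraries but high replicate 1, the median of the 29 was 0.90.

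In 4 lists of genes around the pathway 0 genes passed by edgeR over all genes. Of 14 genes of fatty acid synthesis, 13 were positive, with a median log2 fold change of 1.10, and 6 had an unadjusted p under 0.05 by edgeR, all higher. Over all tested genes 55.3% were positive, with a median of 0.068, and 6.56% were higher at such a p. Me1, malic enzyme, which makes NADPH for lipid synthesis, had 270, 304 and 901.5 CPM in the high libraries, against 84.0, 129.5 and 127 CPM in the low libraries (log2 fold change 2.12, SE 0.53, edgeR adjusted p = 0.205), with no overlap. Acly, ATP citrate lyase, which makes the cytosolic acetyl-CoA that both pathways start from, had a log2 fold change of 1.24 (SE 0.39, edgeR adjusted p = 0.267), also with no overlap.

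Of 17 genes of sterol uptake, lysosomal and ester handling, 13 were positive (76.5%), with a median of 0.17, where 55.3% of all tested genes were positive. Lipa, the lysosomal acid lipase that frees cholesterol from lipoprotein esters, had 93.4, 161 and 114.5 CPM in the high libraries, against 47.1, 58.0 and 61.1 CPM in the low libraries (log2 fold change 1.15, SE 0.26, edgeR adjusted p = 0.184). Stard3, which moves sterol at late endosomes, had 30.0, 36.8 and 28.3 CPM in the high libraries, against 52.3, 59.8 and 52.8 CPM in the low libraries (log2 fold change -0.80, SE 0.19, edgeR adjusted p = 0.191). The groups of both were separate, in opposite directions. Of 10 LXR and oxysterol genes, 8 were positive (80.0%), with a median of 0.54. Nr1h3, which encodes an LXR, had 26.9, 139 and 18.4 CPM in the high libraries, against 11.6, 22.9 and 17.8 CPM in the low libraries (log2 fold change 1.82, SE 0.78, edgeR adjusted p = 0.361), with high replicate 3 at 7.56 times the median of the other 5 libraries and high replicate 4 within the low range. Mylip, an LXR target that removes lipoprotein receptors, had 0.75 (SE 0.34). Of 7 SREBP processing genes tested, 4 were positive (57.1%), near the 55.3% of all tested genes, with a median of 0.12. Erlin2, which takes part in degrading sterol-regulated proteins at the endoplasmic reticulum, had a log2 fold change of -0.48 (SE 0.22), with all high libraries below all low ones.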

How the data were processed

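Ovarian RNA of 6 samples was sequenced from polyadenylated RNA, per the labels' protocols. The authors deposited estimated counts per gene, whole numbers, 1 column per sample. Trim Galore, kallisto, DESeq2 and the build GRCm38 are named, without versions, per the submitters' processing notes, and other settings were not given in the sources used here. Because kallisto divides ambiguous reads by estimate, genes with overlapping exons are uncertain. Columns were matched to samples by title, and groups came from the litter size label. Symbols came from a table of gene names, which matched 35869 of 36727 IDs, and coordinates and transcript lengths from GENCODE M21 on GRCm38.

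Genes with too few counts were removed with filterByExpr (minimum count 10, minimum total 15), leaving 16455, all 29 cholesterol genes among them. High minus low litter size was tested in the whole table by edgeR 4.0.16 quasi-likelihood fits (R 4.3.3) after TMM normalization, with Benjamini-Hochberg adjustment over all tested genes and a threshold of 0.05. SE is the log2 fold change divided by the square root of F. Centred values are log2 CPM with a prior count of 2. One count is 0.0404 to 0.0568 CPM before TMM, all 29 genes had counts in every library, and the common dispersion was 0.219. The script was tested on simulated counts. Alternatives were DESeq2 1.42.0, limma 3.58.1 voom, the edgeR likelihood ratio test, 3 scalings, 2 filters, a threshold of 0.1 and each library left out. Plots were drawn with matplotlib 3.10.9 in Python 3.11.15, and tables made with numpy 2.4.6 and pandas 2.3.3.

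The genes, lists and tests were chosen with earlier results of these data known. All 29 genes are named. Values in every library are given for the 7 whose groups do not overlap, the 8 of smallest p, the regulators and the transport, storage and efflux genes, and, chosen after the values were seen, for Fdps, Idi1, Sqle, Dhcr7 and Msmo1. In each list around the pathway the 2 genes of smallest p are named, save where a result is not reported here. One listed symbol of SREBP processing was not matched.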

Additional observations from a re-analysis of the deposited data

How the results depend on the processing

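The count of cholesterol genes called was 0 under 3 scalings, both filters, limma voom, the threshold of 0.1 and each library left out. It was 4 with DESeq2 and 3 with the edgeR likelihood ratio test. Over all tested genes, 1 was called, against 1017 with DESeq2, 631 with the likelihood ratio test, 3 with limma voom, 2 with library size alone and 0 to 1 with 1 library left out. The median log2 fold change of the 29 genes was 0.56, and -0.051 to 0.90 with 1 library left out, the lowest without high replicate 4. No paired analysis was possible because just 1 replicate number occurs in both groups. With 1 library left out, log2 fold changes that changed sign ran from -0.10 to 0.60 for Mvk, -0.32 to 0.0033 for Lbr, -0.049 to 0.78 for Insig2, -0.64 to 1.02 for Idi1, -0.19 to 1.61 for Fdps, -0.38 to 0.26 for Fdft1, -0.68 to 0.84 for Sqle, -0.36 to 0.83 for Cyp51, -0.93 to 1.55 for Msmo1, -0.61 to 0.90 for Hsd17b7, -0.29 to 0.41 for Scap, -0.50 to 1.40 for Soat1 and -0.094 to 0.043 for Ggps1. Fdft1 was -0.0066 without a filter and -0.060 with limma voom. In high replicate 4 against low replicates 1 and 5, the sign also changed for Mvk (-0.29), Srebf1 (-0.18), Insig2 (-0.25) and Stard4 (0.18). In high replicates 1 and 3 against low replicate 2 it changed for Idi1 (-0.12), Fdft1 (-0.55), Sqle (-0.24) and Msmo1 (-0.17). The causes were not tested. Depth was not varied, and the number of replicates was varied only by leaving libraries out.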
